A study of Mus musculus with 2 samples.

Results

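Sphingolipid and ceramide metabolism was examined in epididymal white adipose tissue (eWAT), a visceral fat depot. The genes were taken by symbol: the serine palmitoyltransferase subunits and their ORMDL regulators, the ceramide synthases and dihydroceramide desaturases, the sphingomyelin synthases and sphingomyelinases, the ceramidases, the enzymes and receptors of sphingosine 1-phosphate, and Kdsr, Ugcg, Cerk and Gm2a. This gave 37 genes of the 18193 named on the array, covered by 79 of its 45037 probe sets. One sample came from a male C57BL/6 mouse given a high-fat diet over 7 weeks, and the other from a male C57BL/6 mouse fed normal chow. Diets were started at 9 weeks of age. The fat content of the diet is not given in the sources used here. RNA from each tissue was hybridised to 1 Affymetrix mouse array, so neither diet has a replicate. No test of the diet was possible, and every "higher" or "lower" is a statement about this pair of samples.

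Sphingolipids are built on a long-chain base that serine palmitoyltransferase makes from serine and palmitoyl-CoA. The base is reduced, joined to a fatty acid by a ceramide synthase and desaturated to ceramide, the branch point of the pathway. Ceramide is turned into sphingomyelin, glucosylceramide or ceramide phosphate, or is cut by ceramidases to sphingosine, which sphingosine kinases phosphorylate to a signal for cell surface receptors. In fat tissue of rodents and humans, ceramides are known to build up in obesity and are linked to poor insulin action.

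The array reports a linear intensity per probe set in arbitrary units. A floor for weak signal was set at each array's 40th percentile, 27.9 on the high-fat diet array and 28.6 on the chow array, and lower values were raised to it before log2 was taken. Genes with signal at or over the floor in 1 or both samples were called measured, and there were 14066 of them. Where several probe sets measured a gene, the one of highest mean log2 intensity represents it. Every difference given is a log2 value, the high-fat diet array minus the chow array. As a measure of probe error, single probe sets differed from the mean difference of their own gene with a pooled SD of 0.32 log2 over 5196 genes. The SD depended on brightness, at 0.37 below a mean intensity of 100, 0.29 from 100 to 400 and 0.20 beyond 400. It holds no difference between animals.

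The tissue label was checked against markers. The adipocyte gene Adipoq had an intensity of 8718.4 on the high-fat diet and 8372.1 on chow. The epididymal gene Lcn5 stayed under the floor, at 3.5 on the high-fat diet and 4.7 on chow. Of 7 epididymis and testis genes on the array 4 were measured, at a summed level of 189.5 on the high-fat diet and 169.1 on chow. Summed marker levels on the high-fat diet were 1.06 times those on chow for adipocytes (10 genes measured), 1.01 times for macrophages (12 genes) and 0.97 times for endothelium (12 genes). They were 0.90 times for lymphocytes (7 genes) and 0.67 times for mesothelium, the lining of the fat pad (6 genes, 5 of them lower). For fibroblasts and progenitors (5 genes) the sums were 1.01 times those on chow, with a median difference of 0.32 and differences from -0.66 for Pdgfra to 0.74 for Col1a1. The part of these shifts in the results was not tested. In whole tissue, fewer cells of a type and less RNA per cell cannot be told apart.

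Of the 37 genes, 34 were measured, 32 of them on both arrays. On the high-fat diet 22 were higher and 12 lower, so that 64.7% were higher, against 46.8% higher and 52.9% lower among all measured genes. With the mean of all probe sets of a gene in place of the brightest, 18 of 34 were higher (52.9%), against 47.0% of all measured genes. The median difference of the 34 genes was 0.09, and that of all measured genes was -0.02. Degs1, Cers4 and Sgms2 (3 of 34) were higher by 1.5-fold or more, a size that 5.82% of all measured genes reached in this direction. Cers6 and Smpd2 (2 of 34) were lower by 1.5-fold or more, against 6.4% of all measured genes. With each gene's probe set of smallest difference, 1 member in place of 3 was 1.5-fold or more higher. Counted on the values raised to the floor, no member was higher by 2-fold or more and 1 was lower, against 1.17% of all measured genes higher and 1.35% lower. Sgms2, below the floor on chow, has only a bound of at least 1.94-fold, which leaves 2-fold possible. The counts past 1.5-fold and 2-fold thus lay near those of the whole array. The remaining 29 measured members were within 1.5-fold.

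Of the 34 genes, 19 had 2 or more measured probe sets. These gave one direction in 12 genes, 8 of them higher and 4 lower, and mixed directions in 7. The pooled SD around the gene mean was 0.24 over the 16 member genes for which at least 2 probe sets passed the floor in both samples. Under the floor in both samples were Sptlc3, an alternative serine palmitoyltransferase subunit, Cers3, a ceramide synthase of skin and testis, and S1pr5, a sphingosine 1-phosphate receptor. Their brightest probe sets read 27.5, 6.9 and 1.9 on the high-fat diet, and 26.6, 1.6 and 1.3 on chow. Cers1, Ormdl2 and Ormdl3 share their only probe sets with another gene symbol and are not members by the rule used.

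**Figure D1:**
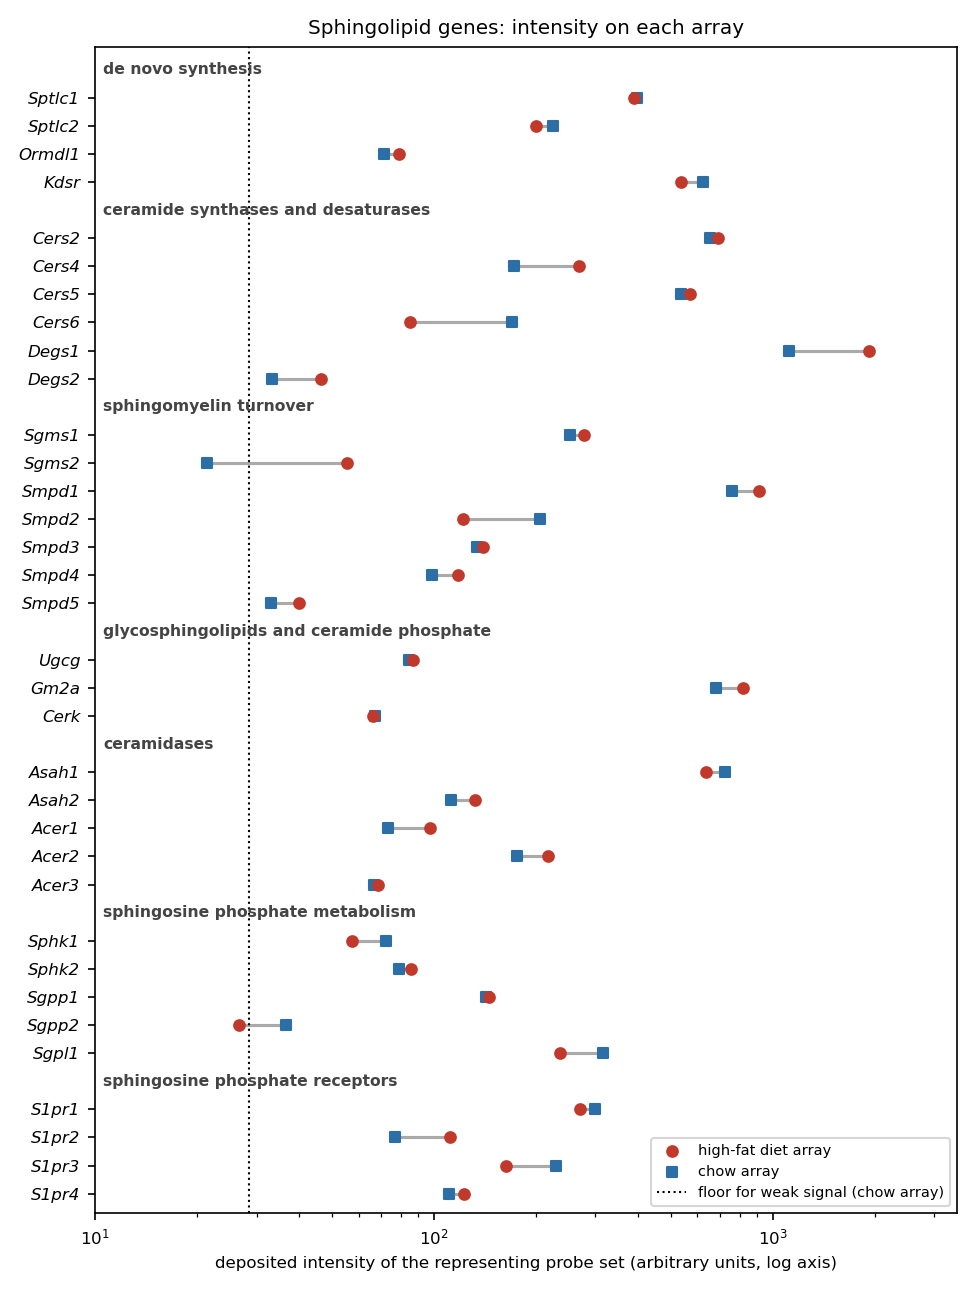
Deposited intensity (arbitrary units, log axis) of the representing probe set of each of the 34 measured genes, by role, with circles for the high-fat diet array, squares for the chow array and a dotted line at the chow array's floor of 28.6. Degs1, Cers4 and Sgms2 lie to the right of their chow value by 1.5-fold or more, Cers6 and Smpd2 to the left, and the other 29 pairs lie within 1.5-fold.

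The promoters of the members past 1.5-fold with a single start site in the RefSeq table are shown because these genes carry the differences described here. Each line holds the 250 bases upstream of the start, from RefSeq, build GRCm38.p6, read 5′ to 3′ on the gene's own strand. They lie at chr1:182282196-182282445 for Degs1 (minus strand), chr8:4493155-4493404 for Cers4 (plus strand), chr2:68861191-68861440 for Cers6 (plus strand) and chr10:41490341-41490590 for Smpd2 (minus strand). Capitals mark matches, on either strand, to any of 4 motifs: the E-box CACGTG, the CCAAT box, the GC box GGGCGG and the TATA box TATAAA. No match overlaps a match to another of these motifs.
Degs1: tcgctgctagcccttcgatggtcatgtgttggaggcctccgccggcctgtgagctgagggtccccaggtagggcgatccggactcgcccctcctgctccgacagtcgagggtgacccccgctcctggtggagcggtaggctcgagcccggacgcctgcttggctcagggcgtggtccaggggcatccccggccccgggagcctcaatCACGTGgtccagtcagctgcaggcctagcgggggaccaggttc
Cers4: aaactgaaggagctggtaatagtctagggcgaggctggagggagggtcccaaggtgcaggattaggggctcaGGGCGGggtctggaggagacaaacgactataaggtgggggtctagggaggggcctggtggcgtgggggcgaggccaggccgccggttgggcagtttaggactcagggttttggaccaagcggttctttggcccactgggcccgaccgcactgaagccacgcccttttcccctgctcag
Cers6: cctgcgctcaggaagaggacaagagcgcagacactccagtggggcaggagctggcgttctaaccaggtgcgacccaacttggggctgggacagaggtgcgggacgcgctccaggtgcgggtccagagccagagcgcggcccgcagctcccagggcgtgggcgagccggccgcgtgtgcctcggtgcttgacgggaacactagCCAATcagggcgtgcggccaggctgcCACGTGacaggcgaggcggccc
Smpd2: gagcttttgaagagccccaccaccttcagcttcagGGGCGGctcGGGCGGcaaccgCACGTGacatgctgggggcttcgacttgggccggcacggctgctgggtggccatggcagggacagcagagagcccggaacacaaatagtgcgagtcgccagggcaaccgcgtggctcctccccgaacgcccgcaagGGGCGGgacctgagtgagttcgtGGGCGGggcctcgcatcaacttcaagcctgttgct

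The E-box CACGTG is in the windows of Degs1, Cers6 and Smpd2. It starts 43 bases before the start site in Degs1, 22 in Cers6 and 194 in Smpd2, and it is not in the window of Cers4. Degs1 was higher and Cers6 and Smpd2 were lower on the high-fat diet, so genes with this motif differed in both directions. Of Sgms2, which has 6 start sites in the table, 1 window holds it. Over all members with an entry, 8 of 48 windows (16.7%), from 7 of 33 genes, held the E-box, against 6.02% of all 32851 windows. The GC box was in 50.0% of member windows and 32.7% of all, the CCAAT box in 27.1% and 33.8%, and the TATA box in 2.08% and 12.4%. The median GC content was 61.6% in member windows and 52.4% in all. Matches are a description of letters and are not evidence of binding.

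Genes of the first steps of synthesis differed little. Of 4 measured genes, 3 were lower on the high-fat diet, none by 1.5-fold, and the median difference was -0.10. With the probe set of smallest difference, 2 of 4 were lower and the median was 0.029. Sptlc1, the common subunit of serine palmitoyltransferase, had an intensity of 389 on the high-fat diet and 397.4 on chow, a difference of -0.03. Its other 3 probe sets were also lower. Their differences were -0.04, -0.35 and, with the high-fat diet value below the floor, -0.42 or more negative.

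Sptlc2, the catalytic partner subunit, read 200.1 on the high-fat diet and 224.6 on chow, a difference of -0.17, while its other measured probe set differed by 0.09. The direction of Sptlc2 therefore depends on the probe set. Kdsr, which reduces the ketone formed by serine palmitoyltransferase, was the most uniform of these genes. Its 3 probe sets read 534.8, 139.5 and 122.1 on the high-fat diet, against 623.9, 176.3 and 158.9 on chow. All were lower on the high-fat diet, with differences of -0.22, -0.34 and -0.38, and a mean of -0.31 ± 0.08 (SD over 3 probe sets, which share the same RNA). Ormdl1, of the family of membrane proteins that restrain serine palmitoyltransferase, read 79.1 on the high-fat diet and 71.5 on chow, a difference of 0.15 in its only probe set.

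Ceramide synthases and desaturases differed in both directions. Of 6 measured genes 5 were higher and 1 lower on the high-fat diet, with differences from -1.004 to 0.78 and a median of 0.28. Among all measured genes 46.8% were higher and 52.9% lower, the shares to set beside the tally of each role group. Over the alternatives the median ran from 0.091, with the floor at the 60th percentile, to 0.48, with plain probe sets only (identifiers without a type suffix). Degs1, the desaturase that introduces the double bond turning dihydroceramide into ceramide, read 1923.2 on the high-fat diet and 1117.6 on chow in its brighter probe set. Its other probe set read 905.8 on the high-fat diet and 616.6 on chow. Both probe sets were higher on the high-fat diet, by 0.78 (1.72-fold) and 0.55. Of all measured genes 2.63% had a more positive difference than Degs1. The difference was above the probe SD of 0.20 for genes of this brightness. Degs2, a desaturase and hydroxylase that also makes phytoceramide, was weak, at 46.4 on the high-fat diet and 33.3 on chow, a difference of 0.48 in its only probe set.

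The ceramide synthases, which differ in the chain length of the fatty acid they attach, did not differ in one direction. Cers6, which prefers the palmitoyl chain, read 85.1 on the high-fat diet and 170.7 on chow. It was 2.01-fold lower, a difference of -1.004, and 1.33% of measured genes had a more negative one. Cers6 has a single probe set, so no other probe set checks this value, and with quantile normalization, lowess centring or log2(intensity + 16) it was short of 2-fold.

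Cers4 read 267.9 on the high-fat diet and 172.2 on chow in its brightest probe set, 1.56-fold higher, a difference of 0.64. Its other probe sets read 179.6 and 35.5 on the high-fat diet, against 160.7 and 32.3 on chow, and differed by only 0.16 and 0.14. All 3 probe sets of Cers4 were higher, but only the brightest reached 1.5-fold, and their mean was 0.31 ± 0.28 (SD over 3 probe sets). Cers2, the synthase of very long chains, read 692.2 on the high-fat diet and 653.8 on chow, a difference of 0.08. Cers5, which like Cers6 prefers palmitoyl chains, read 569.7 on the high-fat diet and 534.8 on chow, a difference of 0.09. Cers2 and Cers5 differed by less than the probe SD.

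**Figure D2:**
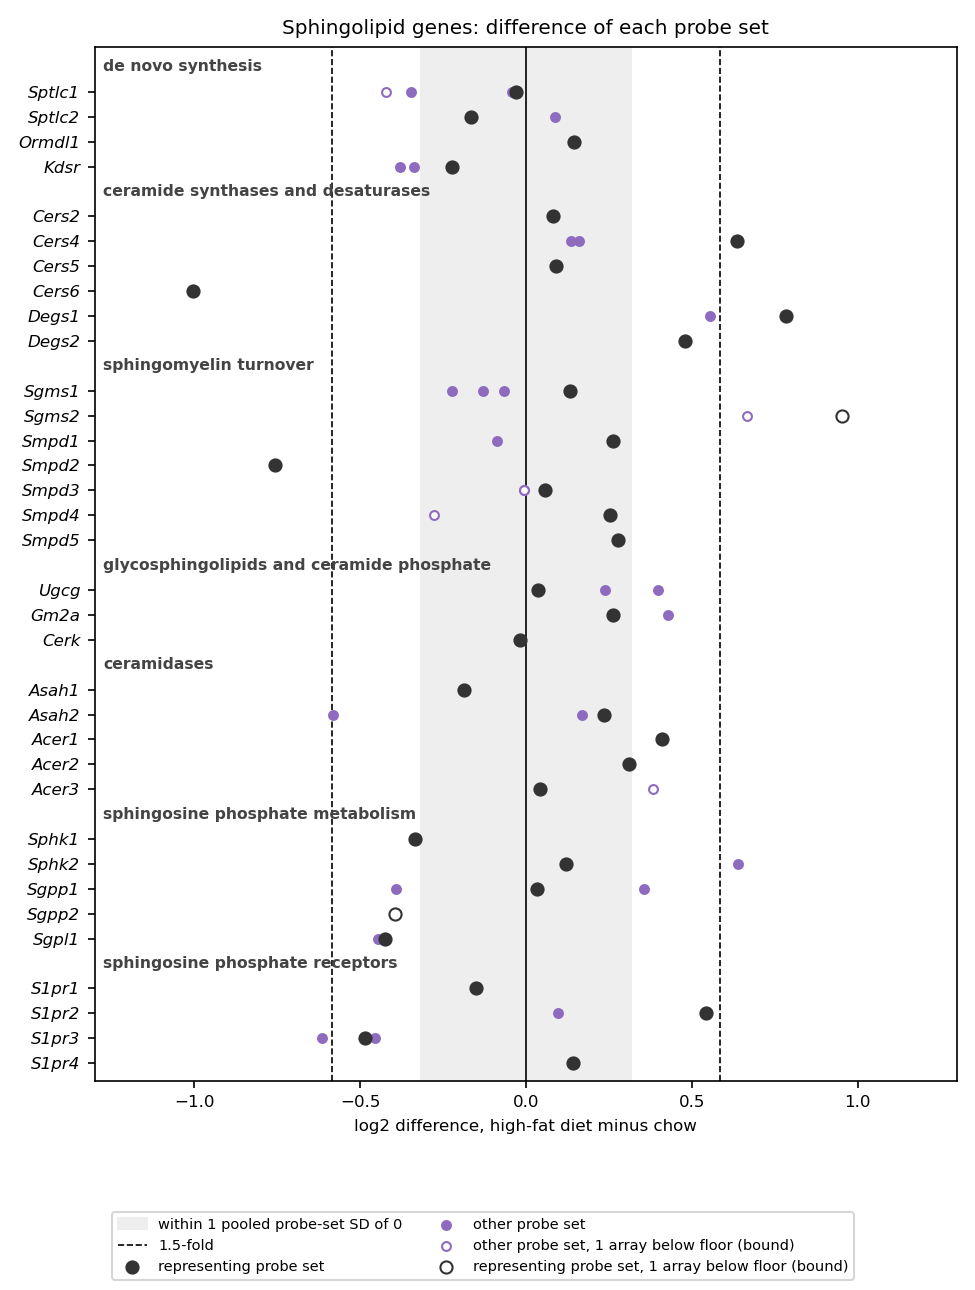
Log2 difference, high-fat diet minus chow, of every measured probe set of the 34 genes (1 row per gene, by role), with the representing probe set in black and other probe sets in purple. Open symbols have 1 array below the floor and are bounds, the grey band spans 1 pooled probe-set SD (0.32) on each side of 0, and dashed lines mark 1.5-fold; Degs1, Sgms2, Kdsr, Sgpl1 and S1pr3 are among the genes with all points on one side of 0.

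In sphingomyelin turnover, 6 of 7 genes were higher and 1 lower by their brightest probe sets, with a median difference of 0.25. This tally depends on the probe set: with the mean of all probe sets 4 of 7 were higher and the median was 0.016, and taking for each gene the probe set that differed least, 3 of 7 were higher and the median was -0.0046. Sgms2, the sphingomyelin synthase of the plasma membrane, passed the floor on the high-fat diet but not on chow. Its 2 probe sets read 55.4 and 45.4 on the high-fat diet, against 21.4 and 27.2 on chow. It was at least 1.94-fold higher in the first probe set, and the difference in the second was at least 0.67. Both probe sets thus gave the same direction at a weak signal. Sgms1, the synthase of the Golgi, read 277.1 on the high-fat diet and 252.8 on chow, a difference of 0.13. Its other 3 probe sets were lower, with differences of -0.07, -0.22 and -0.13, so no direction can be given for Sgms1.

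Smpd2, a neutral sphingomyelinase that releases ceramide from sphingomyelin, was the lower gene of this group. It read 121.7 on the high-fat diet and 205.7 on chow in its only probe set, 1.69-fold lower, a difference of -0.76. Of all measured genes 3.21% had a more negative difference than Smpd2. Smpd1, the acid sphingomyelinase of the lysosome, read 909.8 on the high-fat diet and 757.6 on chow, a difference of 0.26, but its other probe set differed by -0.09. The direction of Smpd1 depends on the probe set.

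The other sphingomyelinases differed by less than the probe SD. Smpd3, the neutral sphingomyelinase of the Golgi and plasma membrane, read 139.3 on the high-fat diet and 133.9 on chow, a difference of 0.06, with differences near 0 in its other 2 probe sets. Smpd4, a neutral sphingomyelinase of the endoplasmic reticulum and nuclear envelope, read 117.6 on the high-fat diet and 98.7 on chow, a difference of 0.25. Its other measured probe set was above the floor on chow alone, with a difference of -0.28 or more negative. Smpd5, a mitochondrial sphingomyelinase in the mouse, was weak, at 40.1 on the high-fat diet and 33.1 on chow, a difference of 0.28.

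The 3 genes of glycosphingolipids and ceramide phosphate were all within 1.5-fold. Their median difference was 0.04, or 0.22 with the mean of all probe sets. Ugcg, the glucosylceramide synthase, read 86.7 on the high-fat diet and 84.6 on chow, a difference of 0.04. Its other 2 measured probe sets differed by 0.24 and 0.40, so all 3 were higher, with a mean of 0.22 ± 0.18 (SD over 3 probe sets). Gm2a, a lysosomal cofactor in the breakdown of gangliosides, read 818.5 and 430.7 on the high-fat diet in its 2 measured probe sets, against 681.9 and 320 on chow. Both probe sets of Gm2a were higher on the high-fat diet, by 0.26 and 0.43. Cerk, the ceramide kinase, read 66.3 on the high-fat diet and 67.1 on chow, a difference of -0.02.

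Of the 5 ceramidases, which release sphingosine from ceramide, 4 were higher and 1 lower, none by 1.5-fold, with a median difference of 0.24. Of all measured genes 46.8% were higher. With the mean of all probe sets 3 of 5 ceramidases were higher and the median was 0.21. Centring on reference genes also gave 3 of 5, with a median of 0.16. Asah1, the acid ceramidase of the lysosome, was the lower one, at 635.4 on the high-fat diet and 722.6 on chow, a difference of -0.19. The alkaline ceramidase Acer1 read 97.2 on the high-fat diet and 73.2 on chow, a difference of 0.41. Its Golgi relative Acer2 read 217.6 on the high-fat diet and 175.6 on chow, a difference of 0.31. Acer1 and Acer2 each rest on 1 measured probe set and were near the probe SD.

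Acer3, another alkaline ceramidase, read 68.5 on the high-fat diet and 66.5 on chow, a difference of 0.04, and at least 0.38 in its other measured probe set. Asah2, the neutral ceramidase, read 132.7 on the high-fat diet and 112.7 on chow, a difference of 0.24. Its other probe sets differed by 0.17 and by -0.58, and the mean of all 3 was -0.06 ± 0.45 (SD). No direction can be given for Asah2.

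Of 5 enzymes of sphingosine 1-phosphate metabolism 3 were lower and 2 higher, none past 1.5-fold, and their median difference was -0.34. Sgpl1, the lyase that irreversibly breaks down sphingosine 1-phosphate and so removes the long-chain base from the pathway, read 235.6 and 122.8 on the high-fat diet in its 2 probe sets. On chow these read 316.6 and 167.2. Both were lower on the high-fat diet to nearly the same extent, with differences of -0.43 and -0.45, or 1.34-fold in the brighter one. Sphk1, the inducible sphingosine kinase, read 57.2 on the high-fat diet and 72.2 on chow, a difference of -0.34 in its only measured probe set.

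Sphk2, the other sphingosine kinase, differed in the opposite direction from Sphk1. Its 2 probe sets read 85.8 and 95.7 on the high-fat diet, against 78.9 and 61.4 on chow. Both were higher on the high-fat diet, by 0.12 and 0.64, with unequal sizes. The probe SD for genes of this brightness was 0.37. The difference of Sphk1 and the 0.12 of Sphk2 were below it, and the 0.64 was above it. Sgpp1, a phosphatase that returns sphingosine 1-phosphate to sphingosine, read 145.8 on the high-fat diet and 142.4 on chow, a difference of 0.03. Its other probe sets differed by -0.39 and 0.36, in opposite directions. The representing probe set of Sgpp1 and the one at -0.39 are of types whose probes may also match other transcripts, and the one at 0.36 is not. Sgpp2, a second such phosphatase, was above the floor only on chow, at 26.7 on the high-fat diet and 36.7 on chow, and was at least 1.32-fold lower.

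The 4 measured receptors of sphingosine 1-phosphate were split, with 2 higher and 2 lower and a median difference of -0.004. S1pr3, a receptor of vascular cells, was lower in all 3 probe sets. These read 163.3, 74.4 and 61.0 on the high-fat diet, against 228.8, 101.9 and 93.4 on chow, with differences of -0.49, -0.45 and -0.61. The mean of the 3 was -0.52 ± 0.08 (SD over probe sets). The brightest probe set of S1pr3 was 1.40-fold lower, short of 1.5-fold. S1pr1, the receptor of endothelium and lymphocytes, read 270.2 on the high-fat diet and 299.7 on chow, a difference of -0.15 in its only probe set.

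Markers of the cells that carry these receptors did not all differ in one direction. Of 12 endothelial markers 5 were higher and 7 lower, and their summed level was 3789.7 on the high-fat diet and 3912 on chow. The endothelial markers ran from a difference of -0.59 for Flt1, at 105.1 on the high-fat diet and 158.2 on chow, to 0.30 for Cldn5, at 430.6 on the high-fat diet and 350.2 on chow. The defining markers Pecam1 and Cdh5 differed by 0.06 and 0.14. Of 7 measured smooth muscle and pericyte markers 5 were lower, with a summed level of 4196.9 on the high-fat diet and 4177.2 on chow. The most negative difference of this list was -1.07 for Myh11, a smooth muscle myosin, at 63.2 on the high-fat diet and 133 on chow. The most positive was 0.58 for Des, at 93.4 on the high-fat diet and 62.4 on chow. The part of the endothelial, smooth muscle and pericyte markers in the lower S1pr3 and S1pr1 values was not tested.

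S1pr2, another receptor of sphingosine 1-phosphate, read 112 on the high-fat diet and 76.9 on chow, a difference of 0.54. Its other probe set differed by 0.10, and the brighter one is of a type whose probes may also match other transcripts. S1pr4, a receptor of leukocytes, read 122.6 on the high-fat diet and 111.1 on chow, a difference of 0.14. Of 7 measured lymphocyte markers 3 were higher and 4 lower, with a summed level of 330.1 on the high-fat diet and 365.6 on chow. The T cell gene Cd3e read 56.1 on the high-fat diet and 46.8 on chow, while Cd3g read 33.8 and 39.2. Differences of the lymphocyte markers ran from -0.84 for Cd79b, with its high-fat diet value below the floor, to 0.28 for Cd79a. Of 12 macrophage markers 6 were higher and 6 lower, with differences from -0.64 for Cd14 to 0.27 for Mpeg1, and the largest differences were on the lower side.

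**Figure D3:**
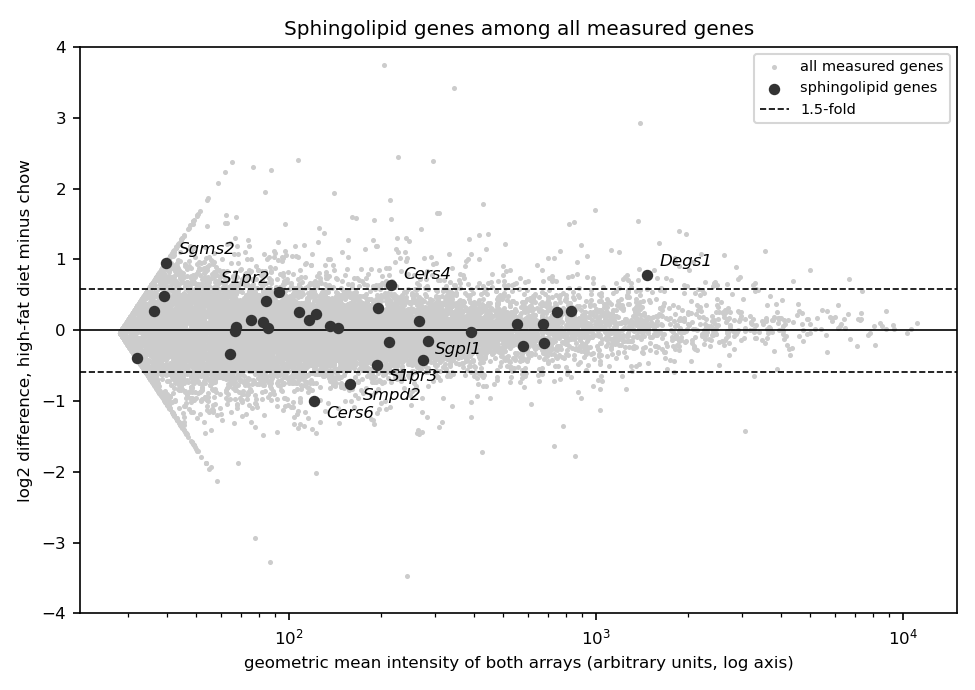
Log2 difference, high-fat diet minus chow, against the geometric mean intensity of both arrays (arbitrary units, log axis) for all 14066 measured genes in grey and the 34 sphingolipid genes in black, with dashed lines at 1.5-fold. Most sphingolipid genes lie inside the dashed lines, Degs1 stands above them at high intensity, and Cers6 and Smpd2 lie below them; the slanted edges at low intensity come from the floor.

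Other genes of the pathway, taken from a list of 48 that are not members by symbol, were compared in the same way. Of the 48, 39 were measured, with 22 higher and 17 lower on the high-fat diet (56.4% higher) and a median difference of 0.06. Among all measured genes 46.8% were higher and the median was -0.02. The median of the list was -0.036 with plain probe sets only and -0.011 with centring on reference genes, and it stayed positive with the other alternatives. At 1.5-fold or more, 3 of these genes were higher and 2 lower, again near the shares of the whole array. The 5 with the most positive difference among those above the floor on both arrays were Fads3, Elovl3, Smpdl3a, Gltp and Sumf1. Fads3, a desaturase that acts on the long-chain base of ceramide, read 2567, 1290.2 and 434.2 in its 3 probe sets on the high-fat diet. On chow these read 1269, 732.5 and 216.7. All 3 were higher on the high-fat diet, by 1.02 (2.02-fold), 0.82 and 1.003.

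Smpdl3a, a phosphodiesterase related to acid sphingomyelinase, read 761.4 on the high-fat diet and 471.6 on chow, 1.61-fold higher. Gltp, a cytosolic glycolipid carrier, read 687.9 on the high-fat diet and 461.8 on chow, 1.49-fold higher. Elovl3, a fatty acid elongase, was 1.83-fold higher at 54.1 on the high-fat diet and 29.6 on chow, where it lay just above the floor. Sumf1, which activates sulfatases, differed by 0.54, but its other measured probe set by -0.06.

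Among those that passed the floor in both samples, the 5 with the most negative difference were Elovl6, Plpp6, Smpdl3b, Plpp2 and Nsmaf. Elovl6, the elongase of palmitate, read 150.7 on the high-fat diet and 232.1 on chow, 1.54-fold lower, and its other probe set was also lower, with a difference of -0.82. Plpp6, a lipid phosphatase, read 99.1 on the high-fat diet and 151.2 on chow, 1.53-fold lower, and its other probe set differed by -0.44. Smpdl3b, a membrane relative of acid sphingomyelinase, read 37.8 on the high-fat diet and 53.2 on chow, a difference of -0.49. Plpp2, a lipid phosphatase, differed by -0.32 and Nsmaf, an adaptor of neutral sphingomyelinase activation, by -0.31. Cert1, which carries ceramide from the endoplasmic reticulum to the Golgi, read 458.3 on the high-fat diet and 439 on chow, a difference of 0.06. Its other measured probe sets differed by 0.03, by -0.05 and, with the chow value below the floor, by at least 0.32. Cert1 falls outside the rule for named genes and was added after its values were seen.

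**Figure D4:**
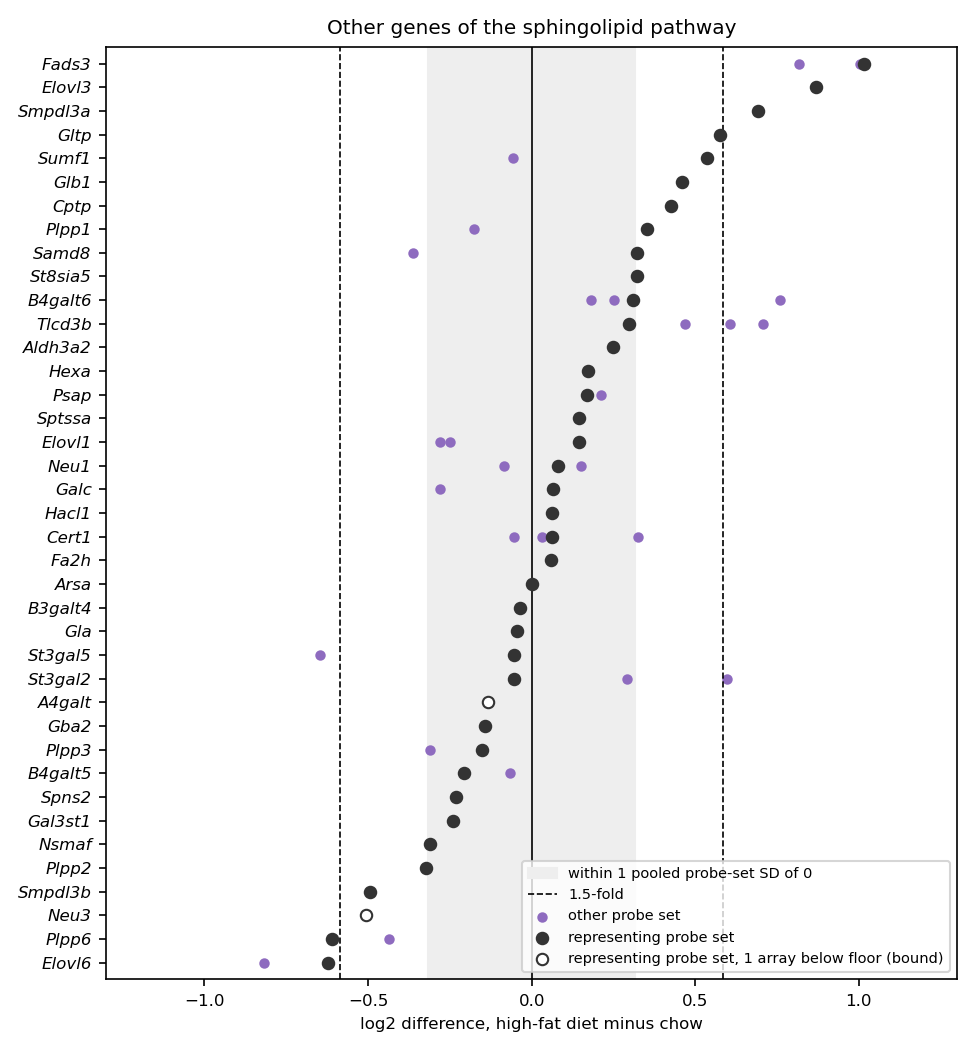
Log2 difference, high-fat diet minus chow, of the 39 measured pathway genes that are not members, ordered by difference, with the representing probe set in black (open where 1 array was below the floor) and all other measured probe sets in purple, bounds included. The grey band spans 1 pooled probe-set SD (0.32) on each side of 0 and dashed lines mark 1.5-fold; all 3 probe sets of Fads3 lie beyond 1.5-fold on the higher side.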

How the data were processed

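Epididymal fat of 1 mouse per diet was profiled on 1 Affymetrix array each. Per the labels' protocols, biotinylated cRNA was made from 10 µg of Trizol-extracted total RNA. The authors deposited a linear intensity for each probe set. For their summary algorithm and scaling, the sources used here give no information. The means of the deposited intensities after trimming 2% at each end were 99.6 on both arrays, and no further centring was applied. The brightest value lay 414 times above the floor on the high-fat diet array and 375 times on the chow array, and the number of arrays limits the precision.

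Gene symbols came from the 2016 annotation of the platform. Of 45037, 34945 had 1 symbol, 932 several and 9160 none here, and 34741 matched the RefSeq table by gene ID, which changed 0 symbols. Of the list symbols, 2 were replaced by the table's symbol. Floors, probe set choice and log2 differences were computed with Python 3.11.15, numpy 2.4.6 and pandas 2.3.3 and tested on simulated data. With 1 array per diet no test was made. All measured members were named, with the 5 largest differences in each direction of the other pathway genes and those above the floor on 1 array alone with a bound of 1.5-fold or more. The members and lists were chosen with earlier results of these data known. Alternatives were floors at the 20th and 60th percentile, log2(intensity + 16), quantile normalization, centring on reference genes or by lowess, and other probe set choices.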

Additional observations from a re-analysis of the deposited data

How the results depend on the processing

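Every value rests on 1 animal per diet, and signal close to the floor limits Sgms2, Sgpp2, Degs2 and Smpd5. No paired analysis was possible because each diet has 1 array. Over 9 alternatives, 24 of the 34 genes kept one direction, and none of the 5 genes past 1.5-fold changed direction. Of 299 single-gene values, 293 moved by no more than the pooled probe-set SD. For the 15 genes with 1 measured probe set, the other probe set choices could not change the value. Values above all floors on both arrays could not change with the floor either. These counts were therefore in part fixed in advance. Cers6 stayed between -1.08 and -0.88, Smpd2 between -0.83 and -0.69, Degs1 between 0.55 and 0.78, and Cers4 between 0.14 and 0.68. Sgms2, below the floor on both arrays with the floor at the 60th percentile, stayed between 0.67 and 0.99 in the other 8. This range mixes its probe sets, since with the floor at the 20th percentile the second one, at 0.74, represents Sgms2. Values for which the chow signal was raised to the floor are bounds, so 0.99 is not an upper limit. The members 1.5-fold or more higher were 1 in place of 3 with the probe set of smallest difference. The members 2-fold or more lower were 0 in place of 1 with log2(intensity + 16), with quantile normalization and with lowess centring, since Cers6 lies at the limit.

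The medians of the role groups moved more. With the floor at the 60th percentile the median was 0.091 for ceramide synthases and desaturases, 0.13 for sphingomyelin turnover and -0.13 for sphingosine phosphate metabolism, with fewer genes measured. With the mean of all probe sets it was 0.016 for sphingomyelin turnover and 0.22 for glycosphingolipids and ceramide phosphate. With the probe set of smallest difference it was 0.029 for de novo synthesis, 0.11 for ceramide synthases and desaturases and -0.0046 for sphingomyelin turnover. With plain probe sets it was 0.48 for ceramide synthases and desaturases and -0.14 for sphingosine phosphate metabolism. Centring on 12 reference genes, whose median difference was 0.07, gave 613 genes higher and 1219 lower by 1.5-fold over the array, against 818 and 900 as deposited, and 18 of 34 members higher (52.9%) in place of 22, against 37.5% of all genes. The count of all genes past 1.5-fold was 1639 higher and 1754 lower with the floor at the 20th percentile, and 391 and 425 at the 60th. The cause was not tested.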
